A study of Mus musculus with 42 samples.

Results

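Conventional CD4 T cells (Tconv) of the ileum were compared between TNFdARE mice and wild-type (WT) littermates. These 6 libraries, 3 per genotype, were chosen by their labels for tissue, cell type and genotype from the 42 bulk RNA sequencing libraries of a study of regulatory T cells (Treg) and Tconv in the gut and the ankle joint. TNFdARE mice carry Tnf without the AU-rich element that limits the stability and translation of its transcript. Mice of both genotypes also carried DEREG, a transgene in which the Foxp3 promoter region drives a green fluorescent reporter fused to the diphtheria toxin receptor, and Tconv were the CD4 T cells sorted as negative for that reporter. Each genotype had 1 library in each of 3 independent experiments, A, B and C. The ileal Treg libraries (reporter positive, 3 TNFdARE and 3 WT) and the Tconv of the mesenteric lymph nodes, which drain the ileum (2 TNFdARE and 3 WT), served for comparison. The 2 TNFdARE mesenteric Tconv libraries came from experiments B and C, and experiment A had a WT library only. Age, sex and the number of animals pooled in a library are not given in the sources used here. In DEREG mice some Foxp3-positive cells are known to lack the reporter, so the sort leaves a gate of reporter-negative CD4 T cells and not a gate free of Foxp3.

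Tumour necrosis factor (TNF) signals through the receptors Tnfrsf1a and Tnfrsf1b, to NF-kB and to death pathways, and mice without the AU-rich element develop inflammation of the terminal ileum and of the joints. Tconv of the gut lamina propria are mostly antigen-experienced cells of the type 1 and type 17 programs. Type 17 cells make interleukin-17 and interleukin-22, type 1 cells are set by Tbx21 and make interferon-gamma, and Treg are set by Foxp3 and restrain the others.

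The 6 libraries held 18710456 to 24544330 counts and 19003 to 20430 detected genes each, and pairs within a genotype correlated at r = 0.954 to 0.972 over log2 CPM, counts scaled to the size of the library. The ileal Treg libraries correlated less closely, at r = 0.839 to 0.938. Summed T cell identity genes (8 genes, among them Cd3e and Cd4) reached 6879 to 8417 CPM in TNFdARE Tconv and 6915 to 8038 CPM in WT Tconv. The 6 markers of CD8 and natural killer cells summed to 18.7 to 23.2 CPM in TNFdARE Tconv and 25.9 to 37.6 CPM in WT Tconv, without overlap. Among them, Klra4 was at 0 in all 6 libraries. B cell markers summed to 316 to 369 CPM in TNFdARE Tconv and 349.96 to 401 CPM in WT Tconv. Plasma cell markers reached 401 to 694 CPM in TNFdARE Tconv and 541 to 561 CPM in WT Tconv. Epithelial markers reached 26.6 to 283 CPM in TNFdARE Tconv and 20.2 to 223 CPM in WT Tconv, with Fabp1 at 0 in all 6. Myeloid markers reached 11.3 to 17.7 CPM in TNFdARE Tconv and 12 to 39.3 CPM in WT Tconv. Stromal markers reached 171 to 299 CPM in TNFdARE Tconv and 172 to 502 CPM in WT Tconv. The genotypes overlapped for these 5 lists. They did not overlap for markers of gamma-delta T cells and innate lymphoid cells, described below. These summed to 224 to 413 CPM in TNFdARE Tconv and 154 to 219.8 CPM in WT Tconv. Xist and the Y-linked Ddx3y were both found in each ileal library, in proportions that set TNFdARE C apart. Xist was at 27.1 CPM in Tconv TNFdARE C and at 78.6 to 148 CPM in the other 5 Tconv libraries, and Ddx3y at 213 CPM in Tconv TNFdARE C and at 58 to 137 CPM in the other 5. Treg TNFdARE C stood apart the same way, with Xist at 19.1 CPM and Ddx3y at 219 CPM. Without Tconv TNFdARE C, 117 genes were called between the genotypes in place of the 208 given next, against 92 to 151 without one of the other Tconv libraries. The part of sex in the results was not tested. Nothing in the labels ties a library to a single animal, so the p-values measure the spread between these sorted samples.

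Ileal Tconv of TNFdARE mice carried higher levels of some genes that mark Treg, such as Foxp3, and of Klrg1, Stab1 and Ccr1. Levels were lower for some naive T cell genes, such as Lef1, and for some genes induced by type I interferon, such as Usp18. Of 15916 genes tested across the 12 ileal libraries, 186 were higher (1.17%) and 22 were lower (0.138%) in TNFdARE than in WT Tconv, 208 in all (1.31%; edgeR quasi-likelihood test, Benjamini-Hochberg adjusted p under 0.05). The libraries of the genotypes did not overlap for any of the 208, which was so for 21.4% of all genes tested, and each of the 208 had the same sign in all 3 experiments. The test that called them used the same libraries, so this is a description. Of the 208, 59 had fitted folds of at least 4, and all 59 were higher in TNFdARE. The median log2 fold change over all genes was -0.02. In bulk samples, more or fewer cells of a type and more or less RNA per cell cannot be told apart, here and for each gene below.

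The number of genes called differed between the fits. A fit of the 6 Tconv libraries alone, with its own filter on low counts, called 636 of 14120 genes (4.5%), 451 higher (3.19%) and 185 lower (1.31%), among them all 208. With the experiment letter as a replicate block the 12-library fit called 338 (2.12%), 286 higher (1.8%) and 52 lower (0.327%), of which 204 were among the 208. DESeq2 called 442 higher and 117 lower. Below, "called" refers to the 12-library fit, and counts from the 6-library fit and the blocked fit are named as such. Over all genes tested, the 12-library fit called 1.17% higher and 0.138% lower, the shares to set beside each list count. Of the 208, 83 also passed in each of 12 fits that left out 1 ileal library.

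Stab1, the scavenger receptor stabilin-1, was at 57.5, 56.5 and 48.9 CPM in TNFdARE Tconv, against 3.38, 3.47 and 3.38 CPM in WT Tconv (library order A, B and C here and below, but B and C for TNFdARE mesenteric Tconv). The genotypes were far apart for this gene, with a log2 fold change of 3.99 ± 0.16 and an adjusted p of 1.1e-06. Klrg1, an inhibitory lectin receptor of effector T cells and gut Treg that binds cadherins, was at 54.6, 36.1 and 17.5 CPM in TNFdARE Tconv, against 3.12, 2.64 and 1.76 CPM in WT Tconv (log2 fold change 3.85 ± 0.45, adjusted p = 0.0018). Penk, the precursor of the enkephalin opioid peptides, was at 393, 474 and 519.6 CPM in TNFdARE Tconv, against 56.9, 45.8 and 43.8 CPM in WT Tconv (log2 fold change 3.24 ± 0.25, adjusted p = 0.00015). Havcr2, the inhibitory receptor TIM-3, was at 66.2, 83.5 and 113 CPM in TNFdARE Tconv, against 9.68, 8.16 and 12.1 CPM in WT Tconv (log2 fold change 3.14 ± 0.27, adjusted p = 0.0002). These 4 genes passed in each of the 12 fits that left out a library.

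Of the 12 highest-ranked genes by fold at a mean log2 CPM of at least 3, the others were Foxp3 and Il1rl1, described with their groups, and 6 of mixed function. Ttn and Neb encode giant proteins of the muscle sarcomere, titin and nebulin. Ttn was at 599, 224 and 391 CPM in TNFdARE Tconv, against 29.9, 14.2 and 52.4 CPM in WT Tconv (log2 fold change 3.65 ± 0.47, adjusted p = 0.0029). Neb had a log2 fold change of 2.87 ± 0.30 (adjusted p = 0.00073). Mmp9, a matrix-degrading protease, varied widely within TNFdARE, at 14.6, 58.2 and 100.4 CPM in TNFdARE Tconv, against 8.67, 7.57 and 7.1 CPM in WT Tconv (log2 fold change 2.89 ± 0.54, adjusted p = 0.025). Slc15a3, a lysosomal transporter of peptides and histidine, rose by 3.07 ± 0.25 (adjusted p = 0.00018), and Selenom, a selenoprotein of the endoplasmic reticulum, by 3.05 ± 0.52 (adjusted p = 0.016). Serpina3f, a serine protease inhibitor of a cluster of near-identical copies among which reads cannot be split with certainty, rose by 2.70 ± 0.41 (adjusted p = 0.0071). Ttn, Neb and Slc15a3 passed whichever single library was left out. Mmp9 lost its call when Tconv WT A, TNFdARE B, WT B, TNFdARE C or WT C was left out (adjusted p at most 0.15). Selenom lost its call when Tconv WT A, TNFdARE B, WT B, TNFdARE C or WT C was left out (adjusted p at most 0.11). Serpina3f lost its call when Tconv WT A or WT C was left out (adjusted p at most 0.056).

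The 12 lower genes at the same minimum level mixed interferon-induced, naive T cell and metabolic genes. Itm2a, a membrane protein of activated and developing T cells, was at 50.7, 55.1 and 48.3 CPM in TNFdARE Tconv, against 133, 164 and 127 CPM in WT Tconv (log2 fold change -1.46 ± 0.18, adjusted p = 0.0022). Ugcg, the enzyme that makes glucosylceramide, was at 198, 168 and 168 CPM in TNFdARE Tconv, against 437, 375 and 378 CPM in WT Tconv (log2 fold change -1.15 ± 0.15, adjusted p = 0.0026). Both genotypes were tightly spaced for these genes, whose levels in TNFdARE were under those of WT in each experiment. Trim13, a ubiquitin ligase of the endoplasmic reticulum, fell by 1.59 on the log2 scale (adjusted p = 0.02), Ephx1, a microsomal epoxide hydrolase, by 1.14 (adjusted p = 0.0069). Als2cl fell by 1.04 (adjusted p = 0.0069) and Patj, a polarity scaffold protein, by 0.98 (adjusted p = 0.04). Trim13 lost its call when any 1 of the 6 Tconv libraries was left out (adjusted p at most 0.11). Ephx1 lost its call when Tconv TNFdARE B was left out (adjusted p at most 0.052). Als2cl lost its call when Tconv TNFdARE B or WT C was left out (adjusted p at most 0.055). Patj lost its call when any 1 of the 6 Tconv libraries or Treg TNFdARE B, WT B or TNFdARE C was left out (adjusted p at most 0.2). Ifi214, Rtp4, Ifi213, Gpr83 and Lef1 are given with their groups.

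**Figure D1:**
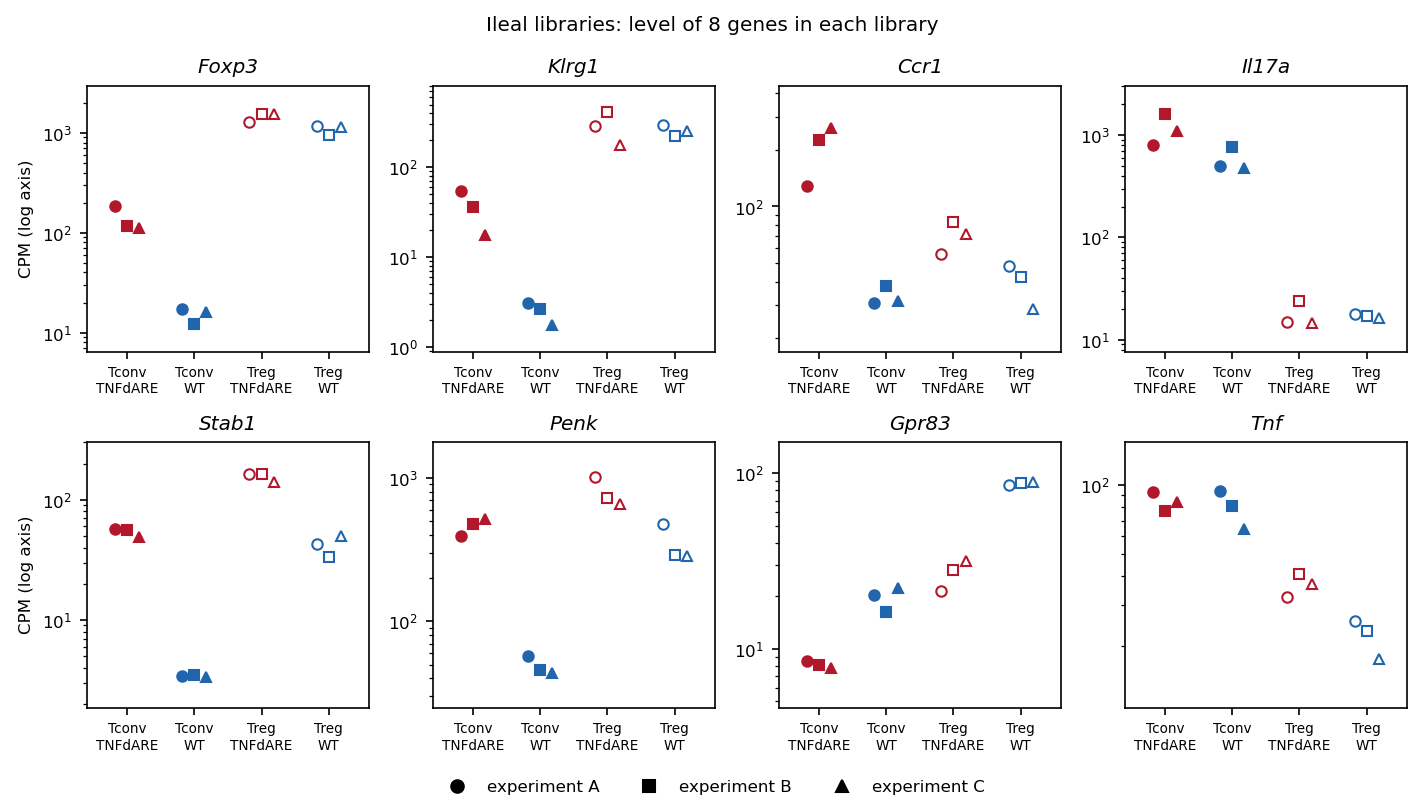
CPM on a log axis of 8 genes in each ileal library, 1 panel a gene, with TNFdARE left of WT for Tconv (filled) and for Treg (open), and marker shapes for the experiments. Stab1, Foxp3 and Penk show no overlap between Tconv genotypes, with TNFdARE above WT, whereas the Tnf libraries of Tconv overlap.

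Tnf itself did not differ detectably in transcript level. Tnf (ENSMUSG00000024401, chr17:35199381-35202007, GRCm38) was at 92.8, 77.3 and 84.7 CPM in TNFdARE Tconv, against 94.1, 81 and 64.6 CPM in WT Tconv, and the genotypes overlapped (log2 fold change 0.09 ± 0.17, adjusted p = 1). The engineered deletion lies in the untranslated end of the transcript, and a count over the whole gene does not check the genotype. In ileal Treg the same gene was at 32.6, 40.8 and 36.9 CPM in TNFdARE Treg, against 25.4, 23.2 and 17.5 CPM in WT Treg (log2 fold change 0.74 ± 0.18, adjusted p = 0.1). In mesenteric Tconv it was at 55.2 and 52.4 CPM in TNFdARE mesenteric Tconv, against 31.6, 26.3 and 16.6 CPM in WT mesenteric Tconv (log2 fold change 1.12 ± 0.22, adjusted p = 0.02). The Tnf effect in ileal Tconv differed from that in Treg by -0.65 ± 0.25 (adjusted p = 1) and from that in mesenteric Tconv by -1.02 ± 0.29 (adjusted p = 0.19), neither past the threshold; the difference from mesenteric Tconv passed with the replicate block (adjusted p = 0.027).

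Of 25 genes of TNF signalling and NF-kB, 2 were called higher and 0 lower, the 6-library fit called 5 higher and 1 lower, and the blocked fit 7 higher. Their median log2 fold change was 0.42, and in 13 of them all TNFdARE libraries lay above all WT libraries, which held for 10.8% of all genes. Ltb, lymphotoxin beta, which forms a membrane ligand of the TNF family, was at 397, 527 and 446 CPM in TNFdARE Tconv, against 231, 249 and 252 CPM in WT Tconv (log2 fold change 0.91 ± 0.15, adjusted p = 0.013). Traf2, the adaptor that joins TNF receptors to NF-kB, had a log2 fold change of 0.44 ± 0.09 (adjusted p = 0.049, and 0.053 in the blocked fit). Both receptors of TNF had values in opposite directions. Tnfrsf1b was at 1249.5, 1014 and 1088 CPM in TNFdARE Tconv, against 868, 675 and 622 CPM in WT Tconv (log2 fold change 0.63 ± 0.15, adjusted p = 0.078, 0.045 in the 6-library fit and 0.0097 in the blocked fit). Tnfrsf1a was at 33.1, 35 and 35.6 CPM in TNFdARE Tconv, against 53.5, 56.6 and 45.5 CPM in WT Tconv (log2 fold change -0.59 ± 0.31, adjusted p = 0.81, 0.025 in the 6-library fit and 0.51 in the blocked fit). Ltb lost its call when Tconv WT A, TNFdARE B, WT B or WT C was left out (adjusted p at most 0.084). It lies within 10 Mb of Tnf on chromosome 17, and the part of the altered locus in its level was not tested. Traf2 lost its call when any 1 of the 6 Tconv libraries or Treg WT A, TNFdARE B, WT B or TNFdARE C was left out (adjusted p at most 0.21).

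Of 15 genes that mark Treg, 8 were higher in the reporter-negative Tconv of TNFdARE mice, Foxp3 among them. Foxp3 (ENSMUSG00000039521, chrX:7573644-7595245), the transcription factor that sets the Treg lineage, was at 186, 117 and 111 CPM in TNFdARE Tconv, against 17.3, 12.3 and 16 CPM in WT Tconv. All 3 TNFdARE libraries lay above all 3 WT libraries, with TNFdARE A the highest. The level was 9.08-fold higher in TNFdARE Tconv (log2 fold change 3.18 ± 0.22, adjusted p = 6e-05). In ileal Treg, Foxp3 averaged 1458 CPM in TNFdARE and 1099 CPM in WT (log2 fold change 0.41 ± 0.20, adjusted p = 0.42). The Tconv mean of TNFdARE was 9.47% of the Treg mean, against 1.38% for WT.

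Besides the 8 higher genes of this Treg core list, 1 was lower, the 6-library fit called 10 higher and 2 lower, and the blocked fit 11 higher and 2 lower. Their median log2 fold change was 1.09, and 11 lay wholly above WT and 2 wholly below it (10.8% and 10.6% of all genes). Ikzf4, the transcription factor Eos that works with Foxp3, was at 45.1, 37.8 and 29.8 CPM in TNFdARE Tconv, against 7.35, 6.82 and 6.86 CPM in WT Tconv (log2 fold change 2.42 ± 0.16, adjusted p = 4.5e-05). Nrp1, neuropilin-1, a surface receptor common on thymic Treg, was at 68.2, 43.5 and 50.6 CPM in TNFdARE Tconv, against 8.94, 12.4 and 5.78 CPM in WT Tconv (log2 fold change 2.58 ± 0.26, adjusted p = 0.00066). Lrrc32, which anchors latent TGF-beta on the Treg surface, was at 80.0, 42.4 and 41.2 CPM in TNFdARE Tconv, against 11.3, 17.3 and 12.4 CPM in WT Tconv (log2 fold change 2.00 ± 0.26, adjusted p = 0.0032). For each of these genes the WT libraries lay under all TNFdARE libraries, and they were close together for Ikzf4 but more spread for Nrp1 and Lrrc32. Capg, an actin-capping protein abundant in Treg, was at 436, 665 and 543 CPM in TNFdARE Tconv, against 118, 166 and 127 CPM in WT Tconv (log2 fold change 2.00 ± 0.20, adjusted p = 0.0006). Il2ra, the high-affinity subunit of the interleukin-2 receptor, had a smaller change, at 112, 74.9 and 67.3 CPM in TNFdARE Tconv, against 52.3, 36.3 and 30.6 CPM in WT Tconv (log2 fold change 1.09 ± 0.22, adjusted p = 0.041). Tnfrsf9 and Tnfrsf4, the remaining higher members, are receptors of the TNF family and stand with that group. Il2ra lost its call when Tconv TNFdARE A, TNFdARE B, WT B, TNFdARE C or WT C or Treg TNFdARE A, WT A, TNFdARE B or TNFdARE C was left out (adjusted p at most 0.2).

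Other members of the core did not pass. Ctla4, the inhibitory receptor of Treg and activated T cells, was at 2124, 2396 and 2810.4 CPM in TNFdARE Tconv, against 1317, 1409.6 and 1572 CPM in WT Tconv (log2 fold change 0.77 ± 0.18, adjusted p = 0.08, 0.011 in the 6-library fit and 0.0018 in the blocked fit). Ikzf2, the transcription factor Helios, had a log2 fold change of 0.63 ± 0.20 (adjusted p = 0.27, 0.011 in the blocked fit), and Tnfrsf18, the receptor GITR, 0.74 ± 0.17 (adjusted p = 0.063, 0.021 in the blocked fit). Il10, an inhibitory cytokine made by gut Treg and by some Tconv, was at 50.7, 84.8 and 78.5 CPM in TNFdARE Tconv, against 55.4, 65.9 and 66.7 CPM in WT Tconv (log2 fold change 0.19 ± 0.23, adjusted p = 1), with overlapping genotypes. Gpr83, a G protein-coupled receptor found on Treg, ran the other way, at 8.53, 8.1 and 7.79 CPM in TNFdARE Tconv, against 20.4, 16.3 and 22.2 CPM in WT Tconv (log2 fold change -1.27 ± 0.17, adjusted p = 0.0035). It was also lower in TNFdARE Treg, at 27 CPM, than in WT Treg, at 87.7 CPM (log2 fold change -1.70 ± 0.17, adjusted p = 0.0019). Izumo1r, the folate receptor 4 of Treg and follicular helper cells, had a log2 fold change of -0.67 ± 0.14 (adjusted p = 0.051, 0.012 in the 6-library fit and 0.037 in the blocked fit).

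The sort keeps Treg out of the Tconv gate only as far as the reporter marks them, and the summed level of the Treg core moved with genotype. The 15 core genes summed to 4673 to 5037 CPM in TNFdARE Tconv and 2544 to 2834 CPM in WT Tconv, against 11366 to 12750.5 CPM in TNFdARE Treg and 10701 to 13838 CPM in WT Treg, and none was at 0. Ctla4, which was not called, made up a large part of the Tconv sums and of their difference between genotypes. To set sizes side by side, the Tconv excess of each gene (TNFdARE mean minus WT mean) was divided by the gene's mean in TNFdARE Treg. The excess was 8.43% of the Treg level for Foxp3, 7.03% for Lrrc32, 9.31% for Il2ra, 11.5% for Klrg1, 13.5% for Ikzf4 and 13.6% for Tnfrsf9. It was larger for Nrp1, at 18.8%, Stab1, at 32.5%, Capg, at 41.9%, and Penk, at 51.8%. It exceeded the whole Treg level for Il1r2, at 107%, and Ccr1, at 244%. Over the 186 higher genes the median excess was 33.7%, with 22 below 15%, 116 between 15 and 50%, 37 between 50 and 100% and 11 at 100% or more. A set of 3 genes, Foxp3 among them, was at or under the Foxp3 share. Of the 186 higher genes, 150 had a higher mean in TNFdARE Treg than in TNFdARE Tconv, as did 52.1% of all genes tested. The part of reporter-negative Treg in these values was not tested.

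**Figure D2:**
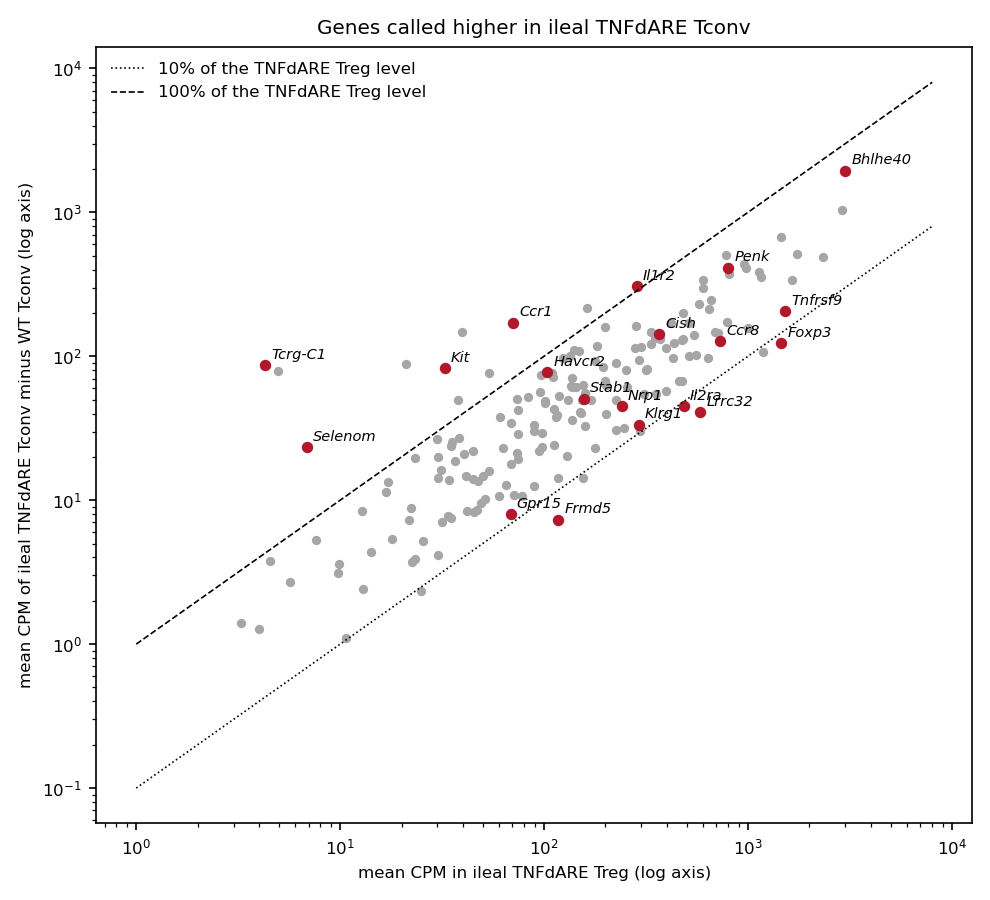
Tconv excess (mean CPM of TNFdARE minus WT Tconv) on the y axis against the mean CPM in TNFdARE Treg on the x axis, both log axes, for the 186 genes called higher (points, labelled ones in red), with lines at 10% and 100% of the Treg level. Foxp3, Lrrc32 and Frmd5 lie under the lower line, Penk and Havcr2 between the lines, and Ccr1 above the upper line.

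Areg, Ccr8, Il1rl1 and Ccr4, genes of type 2 and tissue-repair T cells that tissue Treg also express, were higher as well. Of 8 tested genes of the type 2 list, 4 were called higher and 0 lower (1.17% and 0.138% of all genes), and the 6-library and blocked fits called the same number. Areg, amphiregulin, a growth factor for epithelium, was at 581, 566 and 580.1 CPM in TNFdARE Tconv, against 173, 134 and 107 CPM in WT Tconv (log2 fold change 2.06 ± 0.22, adjusted p = 0.00088). Ccr8, a chemokine receptor of type 2 cells and tissue Treg, was at 167, 144 and 174 CPM in TNFdARE Tconv, against 31.7, 33.7 and 38.5 CPM in WT Tconv (log2 fold change 2.22 ± 0.17, adjusted p = 0.00015). Il1rl1, the receptor of the alarmin interleukin-33, was at 60.6, 18.8 and 26.8 CPM in TNFdARE Tconv, against 4.55, 2.29 and 4.85 CPM in WT Tconv (log2 fold change 3.20 ± 0.50, adjusted p = 0.0081). In each of these the genotypes were clearly apart. Ccr4, another chemokine receptor of type 2 cells and Treg, was the fourth (log2 fold change 1.11 ± 0.21, adjusted p = 0.026). The lineage factor Gata3 was at 269.6, 235 and 149.96 CPM in TNFdARE Tconv, against 154, 144 and 126 CPM in WT Tconv and did not pass (log2 fold change 0.62 ± 0.24, adjusted p = 0.47). Of the cytokines, Il9 was at 0 in all 6 libraries, Il13 was too low to test, and neither Il4 (means 5.79 CPM in TNFdARE Tconv, 10.4 CPM in WT Tconv) nor Il5 (0.17 CPM in TNFdARE Tconv, 0.56 CPM in WT Tconv) passed. The excess over WT was 45.6% of the TNFdARE Treg level for Areg, 17.5% for Ccr8 and 12.8% for Il1rl1. Il1rl1 lost its call when Tconv WT B was left out (adjusted p at most 0.0502). Ccr4 lost its call when any 1 of the 6 Tconv libraries was left out (adjusted p at most 0.13).

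Among 15 secreted growth factors and cytokines, Areg, Penk and Ebi3 were called higher and 0 lower, and the 6-library fit called 5. Ebi3, a subunit of interleukin-27 and interleukin-35, was low in both genotypes, at 7.07, 4.17 and 4.16 CPM in TNFdARE Tconv, against 1.48, 0.907 and 1.27 CPM in WT Tconv (log2 fold change 2.07 ± 0.37, adjusted p = 0.019). Csf1, the macrophage growth factor, was at 19, 15.9 and 22.1 CPM in TNFdARE Tconv, against 7.19, 7.41 and 5.73 CPM in WT Tconv and passed in the 6-library fit only (log2 fold change 1.48 ± 0.38, adjusted p = 0.11, 0.0049 in the 6-library fit and 0.073 in the blocked fit). Ebi3 lost its call when Tconv TNFdARE A, WT A, WT B or WT C was left out (adjusted p at most 0.1).

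Among type 17 genes, a chemokine receptor and a membrane protein passed, while none of the cytokines did. Of 17 tested genes of the program, 2 were called higher and 0 lower, the 6-library fit called 7 higher and 1 lower, and the blocked fit 6 higher. The median log2 fold change was 0.71, and 12 genes lay wholly above WT and 1 wholly below (10.8% and 10.6% of all genes). Il17a (ENSMUSG00000025929, chr1:20730905-20734496), the cytokine that gives the program its name, was at 799.9, 1594 and 1099.7 CPM in TNFdARE Tconv, against 504, 772 and 479 CPM in WT Tconv. All TNFdARE libraries were above all WT libraries, by a narrow margin between TNFdARE A and WT B. The difference did not pass in the 12-library fit (log2 fold change 0.99 ± 0.27, adjusted p = 0.16) or the 6-library fit (adjusted p = 0.078), and passed in the blocked fit (adjusted p = 0.02). In Treg, Il17a averaged 17.7 CPM in TNFdARE and 17 CPM in WT.

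Ccr6, the chemokine receptor that marks type 17 cells, was at 164, 165 and 146 CPM in TNFdARE Tconv, against 58.4, 71 and 77.3 CPM in WT Tconv (log2 fold change 1.20 ± 0.12, adjusted p = 0.00072). Tmem176a, a membrane protein of type 17 cells, was at 141, 229 and 218 CPM in TNFdARE Tconv, against 33.8, 62.4 and 49.6 CPM in WT Tconv (log2 fold change 2.01 ± 0.31, adjusted p = 0.0081). Both passed whichever single library was left out. Il17re, a receptor for interleukin-17C, was at 82.2, 81 and 80.3 CPM in TNFdARE Tconv, against 28.5, 35.4 and 23.4 CPM in WT Tconv, with tight groups, and passed in the 6-library fit only (log2 fold change 1.48 ± 0.66, adjusted p = 0.64, 0.0017 in the 6-library fit and 0.51 in the blocked fit). Il17f was at 237, 296 and 189.7 CPM in TNFdARE Tconv, against 241, 355 and 155 CPM in WT Tconv, and Il22 at 378, 341 and 409.7 CPM in TNFdARE Tconv, against 314, 415 and 249 CPM in WT Tconv. For these 2 cytokines the genotypes overlapped, with log2 fold changes of -0.06 ± 0.52 and 0.21 ± 0.60 (adjusted p = 1 and 1). Il21, a cytokine of follicular helper and type 17 cells, had all TNFdARE libraries under all WT libraries, at 117, 120.2 and 88.9 CPM in TNFdARE Tconv, against 172, 190.2 and 181 CPM in WT Tconv (log2 fold change -0.73 ± 0.67, adjusted p = 1, 0.018 in the 6-library fit and 0.96 in the blocked fit).

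Markers of gamma-delta T cells and innate lymphoid cells, which share many type 17 genes, were mixed. Of 7 tested, 2 were called higher and 0 lower, 3 had a positive and 4 a negative log2 fold change, with a median of -0.73, and 2 lay wholly above WT and 2 wholly below it (10.8% and 10.6% of all genes). The 6-library fit called 2 higher and 1 lower. Their summed level was higher in each TNFdARE library, at 224 to 413 CPM in TNFdARE Tconv and 154 to 219.8 CPM in WT Tconv, with none of the 7 at 0. Kit, a growth factor receptor of innate lymphoid cells, was at 79.6, 139 and 158 CPM in TNFdARE Tconv, against 33.2, 38.9 and 56 CPM in WT Tconv (log2 fold change 1.56 ± 0.31, adjusted p = 0.035). Tcrg-C1, a constant segment of the gamma receptor chain with near-identical copies in the genome, had a log2 fold change of 1.58 ± 0.33 (adjusted p = 0.043). Trdc, the constant segment of the delta chain and the most direct marker of gamma-delta T cells, was at 5.48, 2.97 and 2.4 CPM in TNFdARE Tconv, against 6.5, 6.27 and 7.15 CPM in WT Tconv (log2 fold change -0.88 ± 0.57, adjusted p = 1). The part of such cells in the type 17 values was not tested. Kit lost its call when Tconv WT A, TNFdARE B, WT B, TNFdARE C or WT C or Treg TNFdARE B was left out (adjusted p at most 0.17). Tcrg-C1 lost its call when Tconv WT A, TNFdARE B, WT B, TNFdARE C or WT C or Treg TNFdARE B was left out (adjusted p at most 0.21).

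No type 1 gene passed the test. Of 17 genes, 0 were called in either direction, against 4 higher in the 6-library fit and 1 in the blocked fit, with a median log2 fold change of 0.25. Ifng was at 195, 258 and 246 CPM in TNFdARE Tconv, against 227, 287 and 134 CPM in WT Tconv (log2 fold change 0.11 ± 0.51, adjusted p = 1). The type 1 factor Tbx21 was at 37.6, 45.7 and 29.5 CPM in TNFdARE Tconv, against 65.4, 70.0 and 39.7 CPM in WT Tconv (log2 fold change -0.63 ± 0.38, adjusted p = 0.92). Both genes had overlapping genotypes. Among 15 cytotoxic genes, Klrg1 was the only one called, with 4 in the 6-library fit. Klrc1, the inhibitory receptor NKG2A, was at 17.9, 14.7 and 12.4 CPM in TNFdARE Tconv, against 2.01, 1.89 and 2.5 CPM in WT Tconv and passed in the 6-library fit (log2 fold change 2.81 ± 1.03, adjusted p = 0.44, 0.001 in the 6-library fit and 0.4 in the blocked fit). Of 10 follicular helper genes, 0 were called, 2 were lower in the 6-library fit and 1 in the blocked fit, and 5 lay wholly below WT (10.6% of all genes), with a median log2 fold change of -0.36.

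Tnfrsf9, Tnfrsf4, Tnfrsf25 and Tnfrsf8, receptors of the TNF family that costimulate T cells, were higher. Of 13 costimulatory genes, 5 were called higher and 0 lower (1.17% and 0.138% of all genes), with 6 higher and 1 lower in both other fits. Tnfrsf9, the receptor 4-1BB, was at 362, 223 and 257 CPM in TNFdARE Tconv, against 81.9, 67.7 and 75.3 CPM in WT Tconv (log2 fold change 1.90 ± 0.19, adjusted p = 0.00066). Tnfrsf4, the receptor OX40, was at 654, 556 and 656 CPM in TNFdARE Tconv, against 295, 254 and 309.8 CPM in WT Tconv (log2 fold change 1.12 ± 0.17, adjusted p = 0.0069). Tnfrsf25, the receptor DR3 for the cytokine TL1A, was at 111, 103 and 94.3 CPM in TNFdARE Tconv, against 57.2, 53.5 and 48.5 CPM in WT Tconv (log2 fold change 0.95 ± 0.10, adjusted p = 0.0008). The 3 genes were higher in TNFdARE in each experiment and passed whichever single library was left out. Tnfrsf8, the receptor CD30, had a log2 fold change of 1.25 ± 0.19 (adjusted p = 0.0081), and Icos, of the CD28 family, 0.50 ± 0.11 (adjusted p = 0.048). Treg also express these receptors, and the excess was 13.6% of the TNFdARE Treg level for Tnfrsf9. Tnfrsf8 lost its call when Tconv WT A, TNFdARE B or WT B was left out (adjusted p at most 0.055). Icos lost its call when any 1 of the 6 Tconv libraries or Treg TNFdARE A, WT A, TNFdARE B, TNFdARE C or WT C was left out (adjusted p at most 0.27). Of 13 co-inhibitory genes, Havcr2 was called higher and 0 were lower, with 4 higher in the 6-library fit and 4 in the blocked fit, with Pdcd1 (adjusted p = 0.036) and Tigit (0.012) among those of the 6-library fit.

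Cytokine receptor and STAT pathway genes changed at points of the interleukin-1 and interleukin-2 systems. Of 23 receptor genes, 4 were called higher and 0 lower, and of 12 STAT and SOCS genes, 2 were called higher and 0 lower (1.17% and 0.138% of all genes). Il1r2, the decoy receptor that binds interleukin-1 without signalling, was at 368, 352 and 416 CPM in TNFdARE Tconv, against 72.1, 55.2 and 89.1 CPM in WT Tconv (log2 fold change 2.39 ± 0.28, adjusted p = 0.0019), beside a Treg mean of 285 CPM in TNFdARE. Il2rb, a signalling subunit of the interleukin-2 and interleukin-15 receptors, was at 888, 802 and 963 CPM in TNFdARE Tconv, against 529, 466 and 504 CPM in WT Tconv (log2 fold change 0.82 ± 0.11, adjusted p = 0.003). Il2ra and Il1rl1 were the others. Cish, an inhibitor induced by STAT5 downstream of interleukin-2, was at 223, 220.1 and 275 CPM in TNFdARE Tconv, against 99.8, 97.2 and 92 CPM in WT Tconv (log2 fold change 1.31 ± 0.11, adjusted p = 0.00018). Both groups were narrow for Cish, and it passed whichever single library was left out. Socs2, a related STAT5 target, had a log2 fold change of 0.69 ± 0.16 and did not pass (adjusted p = 0.076, 0.021 in the 6-library fit and 0.058 in the blocked fit). Ifngr2, a subunit of the interferon-gamma receptor, was at 108, 127 and 167 CPM in TNFdARE Tconv, against 201, 275 and 260.5 CPM in WT Tconv (log2 fold change -0.87 ± 0.19, adjusted p = 0.058, 0.032 in the 6-library fit and 0.0073 in the blocked fit).

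The 300 bases around the start of Cish (chr9:107296409-107296708, plus strand; RefSeq, GRCm38.p6; 250 bases before the start to 50 after) are shown because Cish is the STAT target that changed most within its list, and capitals mark 2 matches to TTCNNNGAA, the palindromic element that STAT dimers bind.
Cish: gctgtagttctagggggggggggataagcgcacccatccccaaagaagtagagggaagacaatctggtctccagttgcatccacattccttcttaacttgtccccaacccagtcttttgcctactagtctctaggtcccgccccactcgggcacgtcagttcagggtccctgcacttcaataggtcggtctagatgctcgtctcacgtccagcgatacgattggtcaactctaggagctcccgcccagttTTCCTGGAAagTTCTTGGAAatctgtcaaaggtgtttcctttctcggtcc
This motif was held by 9.55% of 27025 genes with a promoter window in the table, by 8.25% of 10959 tested genes, by 11.9% (16 of 134) of the genes called higher and by 0 of 17 called lower. The windows of Foxp3, Il1r2, Ltb, Tnfrsf9, Tnfrsf25 and Ccr6 were among the 16. A match describes the letters of the window only.

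Several homing receptors were higher in TNFdARE Tconv. Of 21 chemokine receptors and migration genes, 6 were called higher and 1 lower (1.17% and 0.138% of all genes), with 7 higher and 3 lower in the 6-library fit and 8 higher and 2 lower in the blocked fit, and a median log2 fold change of 0.69. Ccr1 (ENSMUSG00000025804, chr9:123962124-123968692), a receptor for inflammatory chemokines such as CCL3 and CCL5, was at 129, 224 and 259.9 CPM in TNFdARE Tconv, against 30.9, 37.7 and 31.5 CPM in WT Tconv (log2 fold change 2.61 ± 0.28, adjusted p = 0.00082). The TNFdARE libraries were spread, with A the lowest, yet all were far above WT. In ileal Treg it averaged 70.2 CPM in TNFdARE, under each TNFdARE Tconv library, and 39.6 CPM in WT, slightly above each WT Tconv library. Ccr2, the receptor for CCL2, was at 268, 269.6 and 261 CPM in TNFdARE Tconv, against 134, 128 and 68.7 CPM in WT Tconv (log2 fold change 1.27 ± 0.21, adjusted p = 0.011). Gpr15, a homing receptor for the large intestine, was low in both genotypes, at 10.1, 9.97 and 10.2 CPM in TNFdARE Tconv, against 1.43, 3.23 and 1.67 CPM in WT Tconv (log2 fold change 2.24 ± 0.27, adjusted p = 0.0021). Cxcr6, a receptor of tissue-resident T cells, was at 585, 824 and 646 CPM in TNFdARE Tconv, against 429, 483 and 220.3 CPM in WT Tconv and did not pass (log2 fold change 0.86 ± 0.30, adjusted p = 0.36). Ccr2 lost its call when Tconv TNFdARE B was left out (adjusted p at most 0.0503).

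Of 14 integrins, 4 were called higher and 0 lower (1.17% and 0.138% of all genes), and the 6-library fit called 5 higher and 1 lower. Itgae, the alpha-E chain that pairs with Itgb7 to hold T cells at E-cadherin on epithelium, was at 225, 163 and 107 CPM in TNFdARE Tconv, against 71.1, 56.4 and 44.8 CPM in WT Tconv (log2 fold change 1.52 ± 0.24, adjusted p = 0.0089). Itgb7, the partner chain of Itgae and of Itga4, was at 845, 1042 and 982 CPM in TNFdARE Tconv, against 523, 667 and 612 CPM in WT Tconv (log2 fold change 0.67 ± 0.14, adjusted p = 0.041). Itga4 had a log2 fold change of 0.78 ± 0.16 (adjusted p = 0.048) and Itgb3 of 0.76 ± 0.14 (adjusted p = 0.026). All 4 lay wholly above WT. Of 15 tissue residence genes, 3 were called higher and 0 lower, and 8 lay wholly above WT (10.8% of all genes). Bhlhe40, a transcription factor of tissue T cells, was at 3689.8, 3704 and 3849.7 CPM in TNFdARE Tconv, against 1964, 1907 and 1532 CPM in WT Tconv (log2 fold change 1.06 ± 0.15, adjusted p = 0.0039). Cd69, the residence and activation marker, was at 1191, 887 and 887 CPM in TNFdARE Tconv, against 1144, 1077 and 1208 CPM in WT Tconv (log2 fold change -0.21 ± 0.15, adjusted p = 1). Itgae lost its call when Tconv WT B or WT C was left out (adjusted p at most 0.055). Itgb7 lost its call when Tconv WT A, TNFdARE B, WT B, TNFdARE C or WT C or Treg WT A, TNFdARE B or TNFdARE C was left out (adjusted p at most 0.2). Itga4 lost its call when any 1 of the 6 Tconv libraries or Treg TNFdARE A, WT A, TNFdARE B, WT B or TNFdARE C was left out (adjusted p at most 0.22). Itgb3 lost its call when Tconv TNFdARE A, WT A, WT B, TNFdARE C or WT C or Treg TNFdARE B was left out (adjusted p at most 0.17).

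Lef1, a gene of naive and recirculating T cells, was lower. Of 13 such genes, 2 were called lower and 0 higher, but 9 were lower in the 6-library fit and 7 in the blocked fit, and 10 lay wholly below WT (10.6% of all genes), with a median log2 fold change of -0.68. Lef1, a transcription factor of naive T cells, was at 221, 233 and 259 CPM in TNFdARE Tconv, against 430.4, 502 and 544 CPM in WT Tconv (log2 fold change -1.05 ± 0.13, adjusted p = 0.0022) and passed whichever single library was left out. Tcf7, the partner of Lef1, was at 1287, 1272 and 1419.6 CPM in TNFdARE Tconv, against 1952, 2152 and 2271 CPM in WT Tconv (log2 fold change -0.68 ± 0.15, adjusted p = 0.065, 0.0063 in the 6-library fit and 0.0085 in the blocked fit). Ccr7 and S1pr1, which steer T cells into and out of lymph nodes, had log2 fold changes of -0.72 ± 0.23 and -0.62 ± 0.19 (adjusted p = 0.27 and 0.22, 0.032 and 0.04 in the 6-library fit and 0.023 and 0.07 in the blocked fit). Il7r, the interleukin-7 receptor, had a value in the other direction (log2 fold change 0.62 ± 0.26, adjusted p = 0.59).

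**Figure D3:**
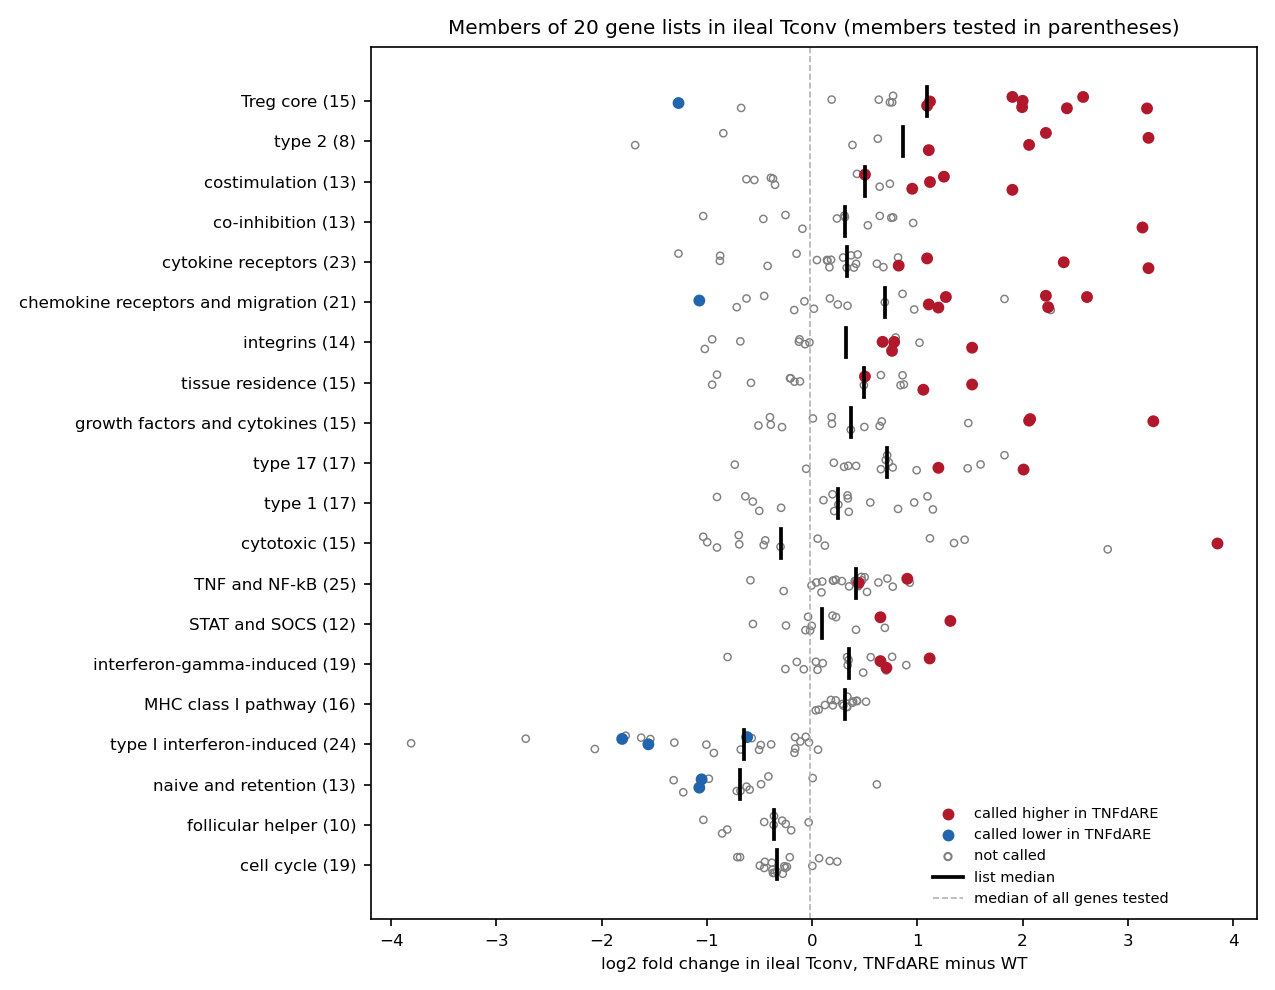
Log2 fold changes (TNFdARE over WT, ileal Tconv) of the tested members of 20 gene lists, with filled points for genes called in the 12-library fit (red higher, blue lower), open points for the others, a bar at each list's median and a dashed line at the median of all genes. The Treg core list has the largest median among those drawn, 1.09, and the naive and retention list lies mostly below 0, with a median of -0.68.

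Usp18, Rtp4 and Irf7, genes induced by type I interferon, were lower, while Gbp3 and Gbp7, from a list of genes induced by interferon-gamma, were higher. Of 24 type I genes, 3 were called lower and 0 higher, with 4 lower in the 6-library fit and 3 in the blocked fit, and 15 lay wholly below WT and 0 wholly above it (10.6% and 10.8% of all genes); their median log2 fold change was -0.65. Usp18, the protease that removes ISG15 and brakes interferon signalling, was at 3.05, 4.98 and 4.06 CPM in TNFdARE Tconv, against 14.1, 16 and 12.2 CPM in WT Tconv (log2 fold change -1.80 ± 0.31, adjusted p = 0.015). Rtp4, an interferon-induced receptor chaperone, was at 10.2, 12.7 and 11.3 CPM in TNFdARE Tconv, against 33.9, 41.8 and 24.7 CPM in WT Tconv (log2 fold change -1.56 ± 0.27, adjusted p = 0.018). Irf7, the factor that amplifies type I interferon production, was at 69.8, 54.9 and 62.8 CPM in TNFdARE Tconv, against 96.3, 104 and 86.8 CPM in WT Tconv (log2 fold change -0.62 ± 0.13, adjusted p = 0.048). In each of these, every TNFdARE library lay below every WT library. Ifi214 and Ifi213, related DNA-sensor genes of the PYHIN family whose copies may share reads, stood outside that list and fell too. Ifi214 was at 3.93, 5.94 and 5.58 CPM in TNFdARE Tconv, against 20.4, 20.9 and 13.8 CPM in WT Tconv (log2 fold change -1.83 ± 0.34, adjusted p = 0.024), and Ifi213 had a log2 fold change of -1.12 ± 0.19 (adjusted p = 0.016). None of the 5 passed in all fits that left out a library. Usp18 lost its call when Tconv TNFdARE A, WT A, WT B, TNFdARE C or WT C was left out (adjusted p at most 0.079). Rtp4 lost its call when Tconv TNFdARE A, WT A, TNFdARE B, WT B or TNFdARE C was left out (adjusted p at most 0.092). Ifi214 lost its call when any 1 of the 6 Tconv libraries was left out (adjusted p at most 0.12). Ifi213 lost its call when any 1 of the 6 Tconv libraries was left out (adjusted p at most 0.084). Irf7 passed in 1 of the 12 only, the one without Treg TNFdARE B (highest adjusted p = 0.27 in the others).

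Of 19 interferon-gamma-induced genes, 3 were called higher and 0 lower, the 6-library fit called 5 and the blocked fit 6, and 10 lay wholly above WT and 0 wholly below it (10.8% and 10.6% of all genes), with a median log2 fold change of 0.35. Gbp3, a guanylate-binding protein of cell-autonomous defence, was at 125, 96.3 and 100.4 CPM in TNFdARE Tconv, against 48.4, 49.98 and 49.9 CPM in WT Tconv (log2 fold change 1.12 ± 0.14, adjusted p = 0.0023) and passed whichever single library was left out. Gbp7, of the same family as Gbp3 and with similar sequence, had a log2 fold change of 0.71 ± 0.15 (adjusted p = 0.043). Ifng itself did not differ detectably, as given above, and of the 16 MHC class I pathway genes, 10 lay wholly above WT (10.8% of all genes) but 0 were called, with 1 in the 6-library fit and 2 in the blocked fit. Gbp7 lost its call when Tconv TNFdARE A, WT A, TNFdARE B, TNFdARE C or WT C or Treg TNFdARE A, WT A, TNFdARE B or TNFdARE C was left out (adjusted p at most 0.16).

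The start windows of Gbp3 (chr3:142559794-142560093, plus strand) and Ifi214 (chr1:173535908-173536207, minus strand; RefSeq, GRCm38.p6) are shown because these interferon-induced genes moved in opposite directions while both windows hold the same interferon-response motif, in capitals, GAAANNGAAA or TTTCNNTTTC on the other strand. The 2 matches in Gbp3 overlap.
Gbp3: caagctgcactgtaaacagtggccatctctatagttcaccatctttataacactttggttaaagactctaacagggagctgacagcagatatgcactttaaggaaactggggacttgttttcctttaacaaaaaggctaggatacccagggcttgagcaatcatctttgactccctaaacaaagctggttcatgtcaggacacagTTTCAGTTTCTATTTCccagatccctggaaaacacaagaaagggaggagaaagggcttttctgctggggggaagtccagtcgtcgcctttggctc
Ifi214: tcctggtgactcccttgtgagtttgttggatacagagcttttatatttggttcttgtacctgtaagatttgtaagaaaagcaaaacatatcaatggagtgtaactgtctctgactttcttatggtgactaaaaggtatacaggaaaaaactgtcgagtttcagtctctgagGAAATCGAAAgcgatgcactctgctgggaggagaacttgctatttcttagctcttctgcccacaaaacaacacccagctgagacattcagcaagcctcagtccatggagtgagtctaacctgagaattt
This motif was held by 3.99% of the genes with a window and 3.85% of the tested genes. It was found in 10 of the 18 type I list genes with a window and in 10 of the 13 interferon-gamma list genes with a window. Of the called genes with a window, 11 of 134 higher (8.21%) and 3 of 17 lower (Gprasp1, Ifi213 and Ifi214) held it.

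**Figure D4:**
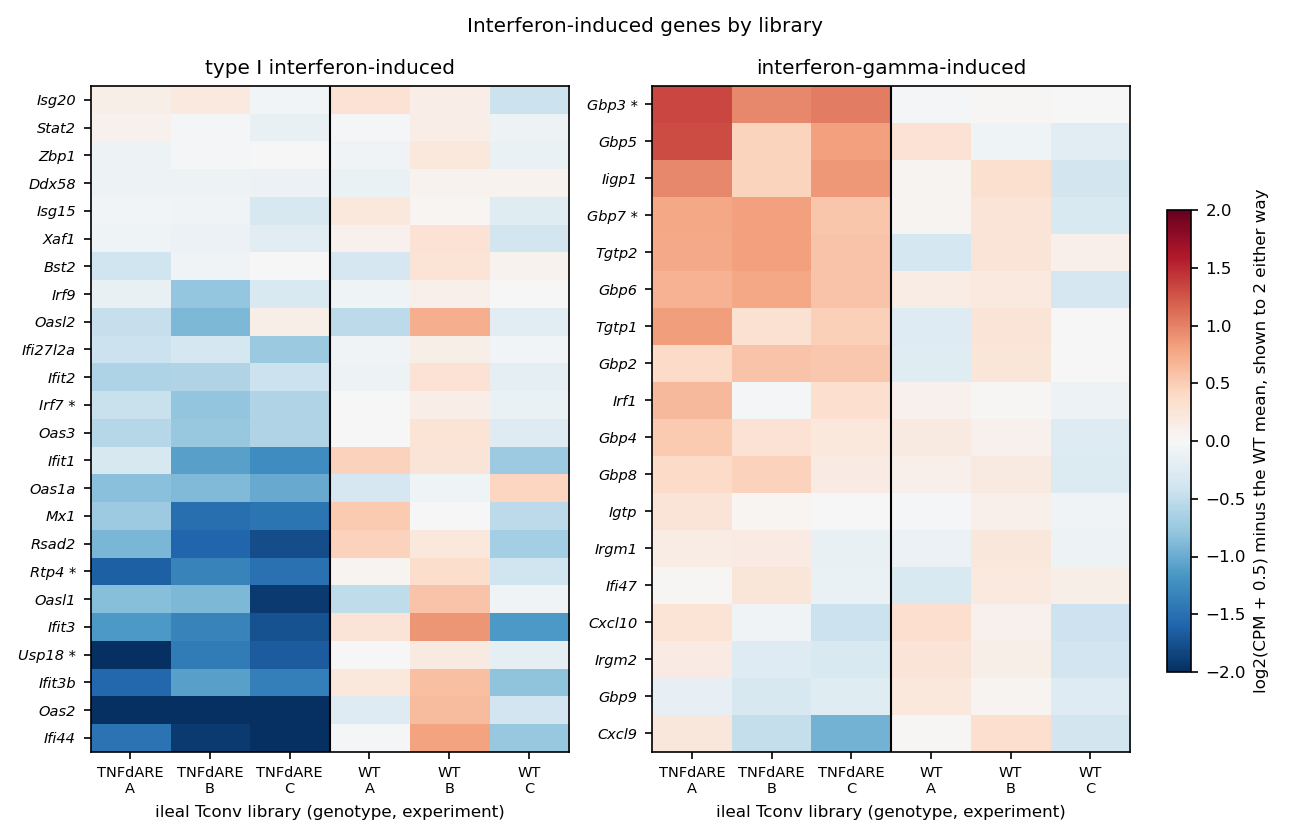
Heat map of log2(CPM + 0.5) minus the WT mean for type I interferon-induced genes (left) and interferon-gamma-induced genes (right; not every list member is drawn) in the 6 ileal Tconv libraries, coloured to 2 either way, with TNFdARE columns left of WT columns and asterisks at genes called in the 12-library fit. Type I genes such as Usp18 and Rtp4 are lower in the TNFdARE columns, and Gbp3 and Gbp7 are higher.

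Several other programs showed no called gene in the 12-library fit. These were cell cycle (19 genes, median log2 fold change -0.33), immediate early genes (16, -0.24), heat shock (10, -0.40), glycolysis and hypoxia (20, 0.20), cholesterol synthesis (19, -0.26) and MHC class II (10, -0.01). The 6-library fit called 0 of the cell cycle, heat shock and cholesterol genes, 2 immediate early genes lower, 2 glycolysis genes higher and 1 lower, and 1 MHC class II gene lower. Among 15 survival and death genes, Pmaip1, the pro-apoptotic protein Noxa, was called higher, at 482, 475 and 466 CPM in TNFdARE Tconv, against 296, 221 and 213 CPM in WT Tconv (log2 fold change 0.96 ± 0.17, adjusted p = 0.017). Pmaip1 lost its call when Tconv TNFdARE A, TNFdARE B, WT B, TNFdARE C or WT C was left out (adjusted p at most 0.11).

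The genotype effect in ileal Tconv was set against that in ileal Treg in the same fit. In Treg, 116 of the 15916 genes tested (0.729%) were called between genotypes, 77 higher and 39 lower in TNFdARE. Of the 186 genes higher in TNFdARE Tconv, 178 had a positive fold change in Treg, as did 50.1% of all genes, and 49 were also called higher there. Of the 22 lower genes, 20 had a negative one, and 9 were called lower. The Tconv effect differed from the Treg effect for 3 genes (0.0188%), all with the larger log2 fold change in Tconv. Their WT levels were lower in Tconv than in Treg, and in CPM the genotype difference was larger in Treg for each of the 3. For Foxp3 the effect in Tconv exceeded that in Treg by 2.78 ± 0.29 on the log2 scale (adjusted p = 0.0083). Stab1 was at 164, 165 and 139.8 CPM in TNFdARE Treg, against 42.5, 33.4 and 49.5 CPM in WT Treg (log2 fold change 1.90 ± 0.15, adjusted p = 0.00041), and the effects differed by 2.09 ± 0.21 (adjusted p = 0.0083). Frmd5, a cytoskeletal adaptor with a FERM domain, was at 8.88, 5.7 and 7.79 CPM in TNFdARE Tconv, against 0.106, 0.236 and 0.049 CPM in WT Tconv, and at 99.4, 127 and 124 CPM in TNFdARE Treg, against 32.7, 32.1 and 31.3 CPM in WT Treg. With WT Tconv this close to 0 its fitted fold depends on the prior count, and the effects differed by 3.84 ± 0.42 (adjusted p = 0.0095). Klrg1 passed with the replicate block only (difference 3.67 ± 0.58, adjusted p = 0.079, and 0.028 with the block). Both experiment A Treg libraries held the most plasma cell RNA among the ileal libraries, and without them none of the 3 passed, with adjusted p = 0.12 for Foxp3, 0.11 for Stab1 and 0.11 for Frmd5. Without Treg TNFdARE B alone, the adjusted p was 0.053 for each of the 3. Without Treg WT B, 98 genes differed, 28 with the higher log2 fold change in Tconv and 70 with the lower.

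In mesenteric Tconv, 334 of 15868 genes (2.1%) were called between genotypes, and the ileal effect differed from the mesenteric one for 99 genes (0.624%), 26 with the higher log2 fold change in the ileum and 73 with the lower. Gpr83 was lower in ileal TNFdARE Tconv, as given above, but higher in the nodes, at 49.6 and 56 CPM in TNFdARE mesenteric Tconv, against 31.9, 22.9 and 30.7 CPM in WT mesenteric Tconv, and the effects differed by -2.15 ± 0.23 (adjusted p = 0.0038). Tnfrsf9 was at 62.8 and 56.2 CPM in TNFdARE mesenteric Tconv, against 54.4, 61.9 and 57.7 CPM in WT mesenteric Tconv, overlapping groups, and the ileal effect was larger by 1.88 ± 0.24 (adjusted p = 0.0082). Tent5a, a poly(A) polymerase, was at 122, 87.1 and 105 CPM in TNFdARE Tconv, against 44.6, 33 and 35.9 CPM in WT Tconv, and at 29.6 and 30.4 CPM in TNFdARE mesenteric Tconv, against 48.9, 56.9 and 50.6 CPM in WT mesenteric Tconv. The directions were opposite, and the effects differed by 2.27 ± 0.21 (adjusted p = 0.0031). Penk was at 15.1 and 15.4 CPM in TNFdARE mesenteric Tconv, against 8.45, 4.41 and 8.22 CPM in WT mesenteric Tconv, and its ileal effect was larger by 2.14 ± 0.30 (adjusted p = 0.011). Foxp3 was higher in TNFdARE in the nodes as well, at 21.1 and 35.2 CPM in TNFdARE mesenteric Tconv, against 6.95, 6.06 and 6.3 CPM in WT mesenteric Tconv (log2 fold change 2.13 ± 0.26, adjusted p = 0.0019), and the site difference did not pass (1.07 ± 0.35, adjusted p = 0.28).

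Some genes had a lower log2 fold change in the ileum than in the nodes, among them Gzmb, Il21 and Fgl2. Gzmb and Fgl2 were near the floor in WT mesenteric Tconv, where small differences in CPM give large folds. Gzmb, the cytotoxic protease granzyme B, was at 329.9, 364 and 217 CPM in TNFdARE Tconv, against 448, 477 and 328 CPM in WT Tconv, and at 4.61 and 7.82 CPM in TNFdARE mesenteric Tconv, against 0.474, 0.371 and 1.26 CPM in WT mesenteric Tconv. The effects differed by -3.55 ± 0.51 (adjusted p = 0.013). Il21 had all TNFdARE libraries below WT in the ileum and above WT in the nodes, at 26.9 and 40.5 CPM in TNFdARE mesenteric Tconv, against 15, 11.6 and 13 CPM in WT mesenteric Tconv, a difference of -2.08 ± 0.24 (adjusted p = 0.0053). Fgl2, a secreted inhibitory protein of Treg, was higher at both sites, at 183, 261 and 235 CPM in TNFdARE Tconv, against 81.1, 104 and 50.6 CPM in WT Tconv, and at 13.8 and 18.8 CPM in TNFdARE mesenteric Tconv, against 1.42, 1.28 and 1.3 CPM in WT mesenteric Tconv. The effects differed by -2.08 ± 0.39 (adjusted p = 0.038). Il17a was far lower in the nodes, at 6.08 and 2.61 CPM in TNFdARE mesenteric Tconv, against 0.592, 0.0825 and 0.333 CPM in WT mesenteric Tconv (log2 fold change 3.67 ± 0.60, adjusted p = 0.0071), and the site difference did not pass (adjusted p = 0.13, and 0.047 with the replicate block). Klrg1 was at 3.06 and 3.08 CPM in TNFdARE mesenteric Tconv, against 0, 0.247 and 0.445 CPM in WT mesenteric Tconv (adjusted p = 0.014). Ccr1 was at 3.86 and 1.9 CPM in TNFdARE mesenteric Tconv, against 0, 0 and 0.37 CPM in WT mesenteric Tconv (adjusted p = 0.009). The difference between sites passed for neither (adjusted p = 1 for Klrg1 and 0.58 for Ccr1). Without mesenteric TNFdARE C, 8 genes and not 99 differed between sites, and without mesenteric WT A 13 did. In ileal Tconv, Fgl2 was called higher in TNFdARE (log2 fold change 1.52 ± 0.27, adjusted p = 0.019). That ileal call was lost when Tconv WT A, TNFdARE B, TNFdARE C or WT C was left out (adjusted p at most 0.079).

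**Figure D5:**
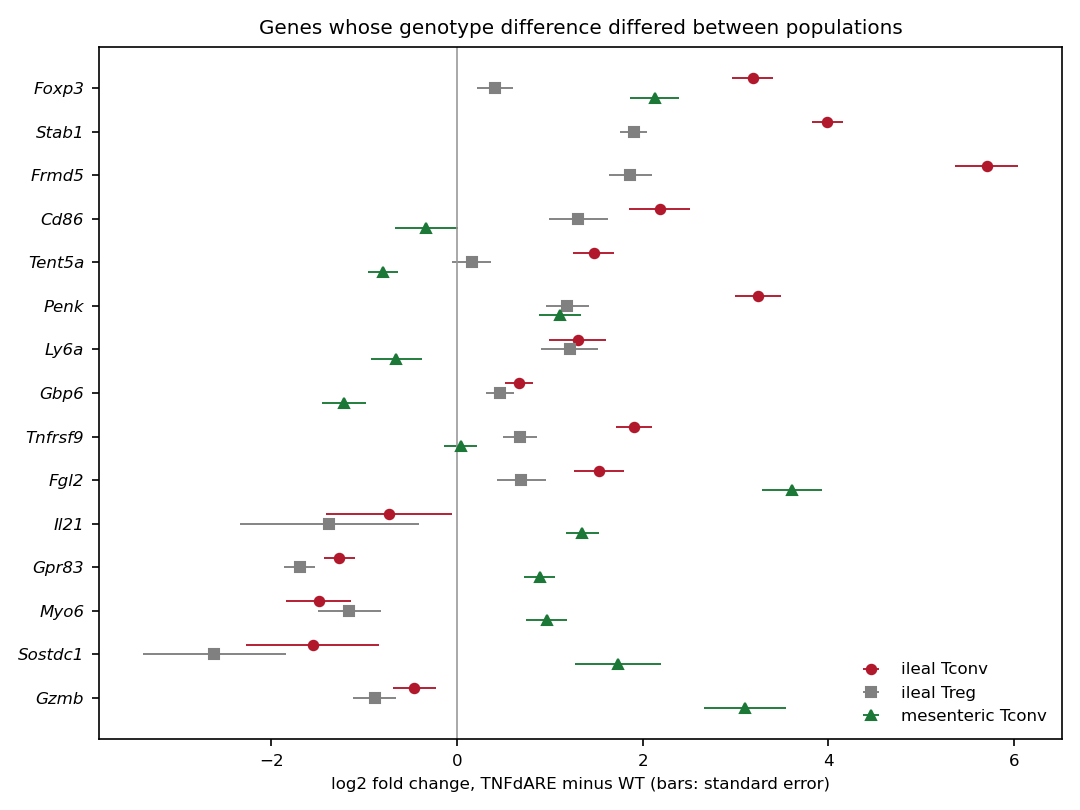
Log2 fold changes (TNFdARE over WT) with standard errors of the named genes in ileal Tconv, ileal Treg and mesenteric Tconv. Foxp3 and Stab1 have the larger fold in ileal Tconv than in ileal Treg, and Gpr83 and Gzmb have a higher fold in mesenteric Tconv than in ileal Tconv; Stab1 and Frmd5 have no mesenteric point because their WT mesenteric libraries were at or near 0.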

How the data were processed

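The 42 libraries were made from RNA of sorted cells (RNeasy Micro kit) with the SMART-Seq full-length protocol, which keeps no strand, and read as single reads on a NovaSeq6000, per the labels' protocols. The labels say that the amount of RNA put in differed between libraries, not which had how much. The authors used cutadapt 1.15 and Bowtie2 2.3.3.1 with GRCm38, per the submitters' processing notes; the counting program and annotation release are not given in the sources used here. Raw counts per Ensembl gene (46603 genes) were deposited by the authors and used as they stand; a table of FPKM was not used. Symbols and positions follow GENCODE M21 on GRCm38, with 46091 identifiers matched. Without strand, reads of a gene and an overlapping antisense gene cannot be told apart.

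Counts were tested in R 4.3.3 with edgeR 4.0.16: TMM factors, filterByExpr, 4 group means over the 12 ileal libraries, the quasi-likelihood F test and Benjamini-Hochberg adjustment over all genes tested, at 0.05. Standard errors are the log2 fold change divided by the square root of F. The difference between ileal and mesenteric effects came from a fit of the 11 gut Tconv libraries. CPM use TMM library sizes, while sums of marker lists use total counts. The same code was tested on simulated counts. Alternatives were DESeq2 1.42.0 (its size factors were also tried in edgeR, as RLE factors), limma 3.58.1 with voom, no filter, a fit of all 42 libraries, a fit with a term for the part of the sample sheet in which a library was listed, the Tconv libraries alone, the experiment letter as a replicate block, and leaving out each library. The Tconv libraries alone with the block, and the fit without both experiment A Treg libraries, were chosen after seeing the data.

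Letters A, B and C name the 3 independent experiments in the labels and so pair the libraries. Deviations from the group means of same-letter TNFdARE and WT libraries correlated at r = 0.073, 0.111 and 0.376 in Tconv and 0.052, 0.186 and 0.41 in Treg. Those of different letters correlated at r = -0.239 to 0.161 in Tconv and -0.369 to 0.228 in Treg. The same-letter values of A and B lay within these ranges, and those of C above them.

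The 34 gene lists (26 programs and 8 sets of cell type markers, 460 genes) and the members were chosen with earlier results of these data known. The rule for named genes takes Tnf, Il17a, Foxp3, Klrg1 and Ccr1, up to 12 genes each way by fold among called, non-overlapping genes with a mean log2 CPM of at least 3, up to 4 called genes per list by adjusted p, and up to 6 each way for each difference of effects, 71 genes in all; other list members are named with their values. Promoter windows and start positions are from RefSeq (GRCm38.p6). Some genes of these lists are not reported here by name.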

Additional observations from a re-analysis of the deposited data

Results flagged for a closer look

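The genotype effect (log2 fold change of TNFdARE over WT) differed between ileal Tconv and ileal Treg for 3 genes in the interaction test, Foxp3 by 2.78 (adjusted p = 0.0083), Stab1 by 2.09 (adjusted p = 0.0083) and Frmd5 by 3.84 (adjusted p = 0.0095). Of 20 alternative settings that gave a value, Foxp3 lost its call in 2, Stab1 in 4 and Frmd5 in 5. Leaving out Treg TNFdARE B ended the call of each (adjusted p = 0.053), and leaving out Tconv WT A (0.059) or Treg TNFdARE C (0.052) that of Frmd5. The groups held 2 or 3 libraries, so no library was tested for standing apart from its group.

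Between ileal and mesenteric Tconv the effect differed for 99 genes. With the more positive effect in the ileum were Cd86 by 2.52 (adjusted p = 0.033), Tent5a by 2.27 (adjusted p = 0.0031), Penk by 2.14 (adjusted p = 0.011), Ly6a by 1.96 (adjusted p = 0.036), Gbp6 by 1.89 (adjusted p = 0.022) and Tnfrsf9 by 1.88 (adjusted p = 0.0082). With the lower log2 fold change there were Gzmb by -3.55 (adjusted p = 0.013), Sostdc1 by -3.28 (adjusted p = 0.031), Myo6 by -2.45 (adjusted p = 0.0082), Gpr83 by -2.15 (adjusted p = 0.0038), Fgl2 by -2.08 (adjusted p = 0.038) and Il21 by -2.08 (adjusted p = 0.0053). Of 17 alternatives that gave a value, Gpr83 and Tent5a passed in each, Tnfrsf9, Myo6 and Il21 failed in 1, Penk in 2, Gzmb in 3, Gbp6 in 5, Sostdc1 in 8, Cd86 and Ly6a in 9 and Fgl2 in 10. Leaving out mesenteric TNFdARE C ended the calls of Tnfrsf9 (adjusted p = 0.07), Penk (0.075), Gzmb (0.077), Gbp6 (0.1), Ly6a (0.11), Cd86 (0.15), Fgl2 (0.18) and Sostdc1 (0.2), and leaving out mesenteric WT A those of the same genes except Tnfrsf9 (0.0502 to 0.11).

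Cd86, a ligand of CD28 and CTLA-4, was at 18.4, 35.9 and 37.3 CPM in TNFdARE Tconv, against 5.55, 7.53 and 7.05 CPM in WT Tconv, and at 8.97 and 9.81 CPM in TNFdARE mesenteric Tconv, against 13.1, 15.3 and 7 CPM in WT mesenteric Tconv. Ly6a, the interferon-inducible antigen Sca-1, was at 185, 344 and 412 CPM in TNFdARE Tconv, against 99, 158 and 125 CPM in WT Tconv, and at 219 and 289.7 CPM in TNFdARE mesenteric Tconv, against 403, 411 and 386 CPM in WT mesenteric Tconv. Gbp6, a guanylate-binding protein, was at 60.4, 63.4 and 55.2 CPM in TNFdARE Tconv, against 41.2, 42.4 and 29.1 CPM in WT Tconv, and at 23.3 and 26 CPM in TNFdARE mesenteric Tconv, against 71.8, 62.3 and 37.9 CPM in WT mesenteric Tconv. For the ileal effect, Ly6a had an adjusted p of 0.082 (0.002 with the replicate block) and Gbp6 of 0.066 (0.041 with the block). In these 3 genes the fitted effect was positive in the ileum and negative in the nodes. Myo6, an unconventional myosin, was at 6.36, 9.68 and 9.65 CPM in TNFdARE Tconv, against 21, 27.6 and 23.7 CPM in WT Tconv, and at 42.8 and 25.6 CPM in TNFdARE mesenteric Tconv, against 18.5, 17 and 17.2 CPM in WT mesenteric Tconv. Sostdc1, a secreted antagonist of BMP and WNT signals, was at 21, 17.4 and 14.3 CPM in TNFdARE Tconv, against 46.4, 40.3 and 68.8 CPM in WT Tconv, and at 3.52 and 10.8 CPM in TNFdARE mesenteric Tconv, against 1.89, 1.155 and 3.3 CPM in WT mesenteric Tconv. Myo6 and Sostdc1 had the reverse pattern. Neither ileal effect passed, with an adjusted p of 0.076 for Myo6 and 0.68 for Sostdc1. Sostdc1 was also near the floor in WT mesenteric Tconv.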

How the results depend on the processing

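Between TNFdARE and WT ileal Tconv, 208 genes were called; DESeq2 called 559 (442 higher), voom 1024, the replicate block 338, the Tconv libraries alone 636 and these with the block 1511. The numbers were 221 with RLE factors, 194 without a filter, 216 with the sample-sheet term, 256 with all libraries and 221 without both experiment A Treg libraries, all within 1.5 times. Leaving out 1 library gave 92 to 273. For the difference from Treg, with 3 genes, DESeq2 called 77, the fit without a filter 13, the replicate block 20, all libraries 23 and the fit without both experiment A Treg libraries 0; leaving out 1 library gave 0 (without Treg TNFdARE B) to 98 (without Treg WT B). For the difference from mesenteric Tconv, with 99 genes, DESeq2 called 398, the fit without a filter 688, the block 182 and all libraries 26; leaving out 1 library gave 8 to 111. The cause of these shifts was not tested.

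No called effect of a named gene turned under any setting run. Effects that were not called did: Tnf in ileal Tconv (0.09) was -0.03 without Tconv WT C, and the ileal minus mesenteric difference of Klrg1 (0.17) was -1.09 with voom, -0.08 with the replicate block and -0.74 to 0.74 with 1 library left out. Of the 71, 17 fell below the threshold with all libraries, 10 without both experiment A Treg libraries, 7 with the sample-sheet term and 5 without a filter. Calls that the block changed stand beside their genes, and it changed no other named call. Depth limits genes near 0 CPM in WT, such as Frmd5.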

Other observations

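Some called genes outside the lists and the naming rule encode a calcium-binding protein, a kinase, a proteoglycan and a phosphatase. They were chosen after their values were seen. S100a6 averaged 93.5 ± 14.4 CPM in TNFdARE and 31.1 ± 7.3 CPM in WT Tconv (SD, n = 3 each; adjusted p = 0.0041), Mapkapk3, a kinase downstream of p38, 243 ± 2.69 CPM in TNFdARE and 95.3 ± 4.74 CPM in WT (adjusted p = 0.0012), and Sdc4, the cell-surface proteoglycan syndecan-4, 137 ± 38 CPM in TNFdARE and 27.6 ± 5.88 CPM in WT (adjusted p = 0.0023). Each passed whichever single library was left out. Dusp4, a phosphatase of MAP kinases, was at 297, 193 and 224 CPM in TNFdARE Tconv, against 112, 95.9 and 73.2 CPM in WT Tconv (log2 fold change 1.34 ± 0.18, adjusted p = 0.0037).

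Genes near the altered locus were counted by position. Within 10 Mb of Tnf on chromosome 17, 6 of 334 tested genes were called (1.8%), against 197 of 15141 on the other chromosomes (1.3%). The 6, named after their values were seen, were Cdkn1a, Tff1, Myo1f, Ltb, H2-T10 and Gm8810. Of the 208 called genes, 197 were protein coding.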
